A study of Mus musculus with 64 samples.

Results

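The transcripts of 4 transcription factor genes, Irf4, Irf8, Batf and Batf3, were followed in mouse CD4 T cells with induced deletions of Roquin, Regnase-1 or both, before and during restimulation of the T cell receptor. The genes were chosen by symbol, 4 of the 23134 genes in the deposited table, and all 4 passed the filter on low values that kept 16140 genes. IRF4 and IRF8 are interferon regulatory factors that bind DNA weakly alone and mostly act with a partner. BATF and BATF3 are small AP-1 proteins that pair with JUN proteins and recruit IRF4 or IRF8 to composite AP-1 and IRF elements. In T cells IRF4 is induced through the T cell receptor in proportion to signal strength, and BATF with IRF4 is known for its role in Th17, follicular helper and effector differentiation, while IRF8 with BATF3 is best known from conventional dendritic cells.

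CD4 T cells came from the spleen of C57BL/6J mice, and every genotype, control included, carried Cd4-Cre-ERt2, a Cre recombinase made in Cd4-expressing cells and switched on by tamoxifen. TKO cells were Rc3h1/2 fl/fl and Zc3h12a fl/fl, DKO cells were Rc3h1/2 fl/fl, KO cells were Zc3h12a fl/fl, and WT cells had the Cre alone. Roquin-1 (Rc3h1) and Roquin-2 (Rc3h2) bind stem-loops in mRNAs and promote their decay, and Regnase-1 (Zc3h12a) is an endonuclease that cleaves mRNAs, many of them shared with Roquin. All cells received 4´-OH-tamoxifen, were activated with anti-CD3/28 for 40 h in a Th1 culture, spent 2 days with IL-2, and were then taken at 0 h or after 1, 2 or 4 h of renewed anti-CD3/28. Each of the 16 groups of genotype and time held 4 libraries. The labels give no age, do not say how complete the induced deletion was, and name no animal or culture behind a library. The p-values therefore rest on a spread among libraries that could be technical.

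Library depth was 5369873 to 11666566 reads (median 7720298). Values are normalized counts, rescaled between libraries, log2 differences are on the log2(value + 1) scale with the SE of the fit, and a gene was called in a comparison at an adjusted p under 0.05 (limma with Benjamini-Hochberg adjustment over the 16140 genes). The 9 CD4 T cell markers, among them Cd3e, Cd4 and Trac, were detected in all 64 libraries. Their sum at 4 h was 11400 to 13000 in TKO and 10930 to 12380 in KO libraries. Both lay above WT libraries, at 8272 to 9296, and DKO libraries overlapped WT at 8777 to 11800. Of the targeted genes, Rc3h1 at 4 h averaged 706 ± 70.8 in TKO cells and 618 ± 23.8 in DKO cells, against 1389.7 ± 75.0 in WT cells. Zc3h12a at 1 h averaged 548 ± 43.0 in TKO cells and 641 ± 130.2 in KO cells, against 1045 ± 136 in WT cells (SD, n = 4 each). Rc3h2 was not lower than in WT cells in any comparison, at 900.5 ± 119.9 in TKO, 802 ± 69.3 in DKO and 619 ± 52.1 in WT cells at 0 h. Zc3h12a was not lower in TKO or KO cells at 0 h, where it averaged 148 ± 43.4 in TKO cells, 122 ± 30.01 in KO cells and 95.1 ± 10.5 in WT cells. Counts of whole genes include exons outside a deleted part, so these levels check the labels only in part. Within each group the libraries also spread along 1 axis, the first principal component of the deviations from the group means, which held 31.7% of that variance. In TKO cells the library that scored highest on it had the lowest Irf4, Irf8 and Batf3 of its group at all 4 times. In the other genotypes that library had the lowest Irf8 at 4 of 4 times in DKO, 3 in KO and 2 in WT cells. It had the lowest Irf4 at 2, 1 and 1 times, and the lowest Batf3 at 1, 2 and 1. It had the highest Irf4 at 1 time in DKO and 2 in KO cells, and the highest Irf8 at 1 in WT cells. For Batf it was lowest at 2, 2, 1 and 0 times and highest at 2, 1, 1 and 1 in TKO, DKO, KO and WT cells. Its part in those results was not tested beyond leaving it out.

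All 4 genes lie on the plus strand of GRCm38: Irf4 (ENSMUSG00000021356) on chromosome 13 from 30749226 to 30766976, Irf8 (ENSMUSG00000041515) on chromosome 8 from 120736358 to 120756694, Batf (ENSMUSG00000034266) on chromosome 12 from 85686669 to 85709087, and Batf3 (ENSMUSG00000026630) on chromosome 1 from 191097847 to 191108945. The 250 bases upstream of each start site were read from RefSeq promoters of GRCm38.p6, in which 4 of 4 symbols matched. The nearest window to the annotated start was taken for Irf8, which has 2. As a description, these windows were searched on both strands for short motifs, and no match overlapped another. The motifs were TGANTCA (AP-1), then GAAA and GAAA with 2 bases between (as in an interferon-stimulated response element). The others were GGG and TTCC with 3 bases between (NF-kB) and GGAAA (the NFAT core). The first 3 had no match in any of the 4 windows, and 6.75%, 2.98% and 4.65% of all 32851 promoters hold them. The NFAT core, held by 55.6% of all promoters, had 1 match in Irf8, 2 in Batf, 1 in Batf3 and 0 in Irf4. The core promoter motif TATAAA, searched for after the sequences had been read, was found in Irf4 and Irf8 and not in Batf or Batf3, and 12.4% of all promoters hold it. The Irf4 and Irf8 stretches below show the TATA match in capitals, which begins at -26 from the start site of Irf4 and at -31 from that of Irf8. The others show the NFAT core in capitals (TTTCC where it lies on the minus strand), at -166 in Irf8, -141 and -93 in Batf, and -213 in Batf3. Positions count from the RefSeq start site, which lies inside the annotated gene for Irf4 (30749233), Batf (85686720) and Batf3 (191098414) and at its first base for Irf8. The whole Batf3 window, from 191098164 to 191098413, lies inside the annotated gene. All read 5′ to 3′ on the plus strand, and a match is a description and not a site of binding.
Irf4, chr13:30749195-30749224: cgcctccggctcTATAAAgttcctctttct
Irf8, chr8:120736315-120736344: ccccgccccatcTATAAAagcaggcgcgcg
Irf8, chr8:120736180-120736209: aagtgatttctcGGAAAgagagcgcttcag
Batf, chr12:85686567-85686596: attctgtggtctTTTCCcagatgtgtattt
Batf, chr12:85686615-85686644: aacttgttgacgTTTCCgcccatgtgactt
Batf3, chr1:191098189-191098218: ggggcccttagcGGAAAgcagcgacttggg

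Batf was higher than in WT cells in all 12 comparisons of a knockout with WT, whereas Irf4 passed the test only at 0 h, in TKO and DKO cells, and Irf8 in none of the 12. Batf3 was higher in TKO cells at all 4 times. It was also called higher in DKO cells at 1 and 2 h and in KO cells at 2 h, but these calls were weak. Restimulation raised Irf4, Irf8 and Batf in every genotype, Irf4 and Irf8 already at 1 h, and the means of Irf8 and Batf were highest at 2 h. The gain of Irf4 over its own 0 h level was smaller in TKO than in WT cells at 1, 2 and 4 h. In bulk RNA, fewer cells that make a transcript and less of it per cell cannot be told apart.

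**Figure D1:**
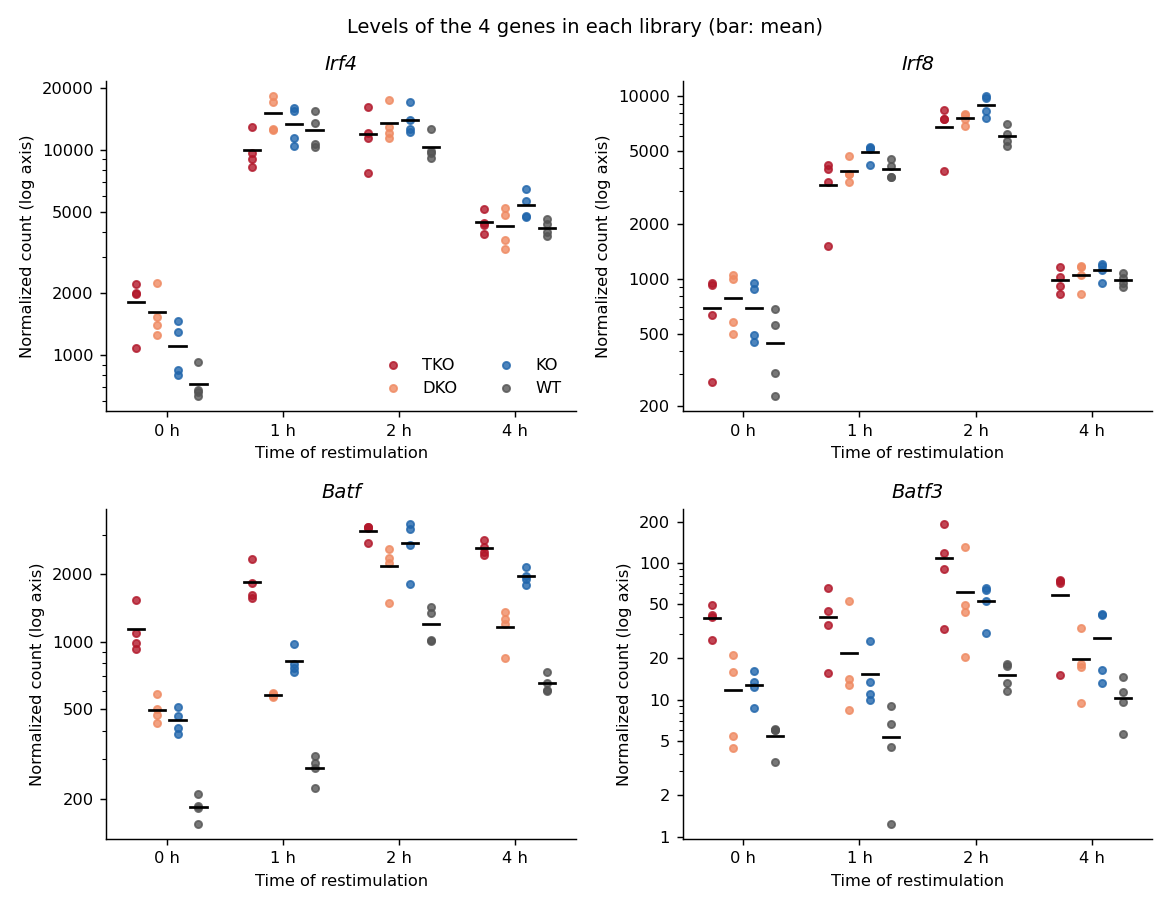
Normalized counts (log axis) of Irf4, Irf8, Batf and Batf3 in each of the 64 libraries, by time of restimulation, with TKO, DKO, KO and WT from left to right at each time; each point is 1 library and each bar a group mean. Batf libraries of the knockouts all lie above the WT libraries of the same time, while after restimulation Irf4 and Irf8 overlap WT in all knockouts but KO cells, which lie above WT for Irf4 at 4 h and Irf8 at 2 h.

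Batf, which encodes the AP-1 partner of IRF4, differed from WT in every knockout at every time. At 0 h Batf was 1097, 924, 982 and 1538 in the TKO libraries, 582, 434, 501 and 473 in the DKO libraries, 469, 414, 389 and 513 in the KO libraries and 185, 154, 210.4 and 182 in the WT libraries. DKO and KO libraries overlapped, and all of them lay below the TKO and above the WT libraries. At 1 h the values were 1562, 1829.7, 1616 and 2332 in TKO, 573, 584, 593 and 567 in DKO, 760.3, 798, 734 and 979 in KO and 288, 308, 272 and 222 in WT libraries. No pair of genotypes overlapped at that time, and KO stood above DKO. At 2 h they were 3230.0, 2762, 3233 and 3209 in TKO, 2242, 2585, 2360.2 and 1479 in DKO, 3351, 2694, 3188 and 1806 in KO and 1336, 1005, 1021 and 1431 in WT libraries. Every knockout library exceeded every WT library, KO libraries overlapped both other knockouts, and the fourth DKO library lay just above the highest WT library. At 4 h they were 2421, 2648, 2518 and 2824 in TKO, 1262, 1195, 1351 and 843 in DKO, 1909, 2155, 1787 and 1967 in KO and 610.3, 606, 733 and 658 in WT libraries. The 4 genotypes were again fully separate, in the order TKO, KO, DKO and WT.

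Against WT, Batf in TKO cells was higher by 2.61 at 0 h, 2.74 at 1 h, 1.39 at 2 h and 2.00 at 4 h on the log2 scale, a 6.09-fold difference at 0 h (limma, largest adjusted p = 6.6e-10). The SE of every log2 difference between 2 groups was 0.16 for Batf. In DKO cells it was higher by 1.44, 1.09, 0.84 and 0.82 at 0, 1, 2 and 4 h (limma, largest adjusted p = 0.00047). KO cells exceeded WT by 1.28, 1.58, 1.18 and 1.58 at those times (limma, largest adjusted p = 2.8e-07). All 12 calls held under every alternative that was run. The authors' deposited table, made from the same libraries, lists a false discovery rate under 0.05 for 11 of these 12 comparisons. The share of all genes under 0.05 in it was not counted.

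Calls of single members stand against a background that differed much between genotypes. At 0 h, 3 of 4 members were called in TKO cells against WT, where 37.2% of all genes were called. At 1, 2 and 4 h, 2 of 4 members were called, against 31.5%, 36.5% and 43.7% of all genes. In DKO cells 2 members were called at 0, 1 and 2 h and 1 at 4 h, with a background of 7.61%, 8.2%, 9.47% and 5.37%. In KO cells 1, 1, 2 and 1 members were called at 0, 1, 2 and 4 h, with a background of 1.34%, 2.16%, 5.93% and 33.1%. For TKO cells, and for KO cells at 4 h, a call of a given gene against WT was thus common, and for DKO cells and the earlier KO times it was rare. How many of all genes had libraries that did not overlap between genotypes was not counted.

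Batf3, a close relative of Batf with a known role in dendritic cells, was low in all groups. At 0 h Batf3 was 39.9, 49.5, 41.3 and 27.2 in TKO, 5.40, 4.44, 21.2 and 15.9 in DKO, 13.5, 8.74, 16.3 and 12.5 in KO and 5.97, 3.51, 5.97 and 6.10 in WT libraries. TKO and KO libraries all lay above the WT libraries, and DKO libraries overlapped WT. At 1 h it was 44.4, 34.9, 65.3 and 15.7 in TKO, 14.1, 52.1, 8.47 and 12.7 in DKO, 13.5, 26.9, 11.03 and 9.89 in KO and 4.51, 6.65, 8.99 and 1.24 in WT libraries. The second DKO library stood far above the other 3, the lowest DKO library lay within the WT range, and TKO and KO libraries lay above it. At 2 h it was 119, 32.8, 90.6 and 193 in TKO, 20.51, 129, 43.3 and 49.3 in DKO, 62.7, 52.7, 65.0 and 30.7 in KO and 11.6, 17.6, 13.2 and 18.3 in WT libraries. Every knockout library exceeded every WT library at that time. At 4 h it was 15.2, 74.7, 73.6 and 70.6 in TKO, 18.2, 17.4, 33.6 and 9.45 in DKO, 13.3, 41.4, 16.5 and 42.1 in KO and 14.7, 11.3, 9.69 and 5.60 in WT libraries. The first TKO library fell far below the other 3, though still above all WT libraries, and DKO and KO overlapped WT.

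In TKO cells Batf3 was higher than in WT by 2.66, 2.73, 2.53 and 2.23 on the log2 scale at 0, 1, 2 and 4 h (limma, largest adjusted p = 0.0007), calls that held under every alternative run. Each log2 difference of Batf3 between 2 groups had an SE of 0.53, and WT libraries held 1 to 15 reads of it, so the log2(value + 1) scale understates these differences. DKO cells were higher by 1.70 at 1 h and 1.65 at 2 h (limma, adjusted p = 0.035 and 0.037), and KO cells by 1.70 at 2 h (limma, adjusted p = 0.043). These 3 calls were weak: limma voom on the recovered reads gave adjusted p = 0.26, 0.06 and 0.093. They were lost under 8, 13 and 14 of 20 alternatives. The 2 h calls were lost under all 4 other scalings (limma, adjusted p = 0.057 to 0.098). The call in DKO cells at 1 h was lost without the first or the second DKO library at 1 h or the first or the fourth WT library at 1 h, at log2 differences of 1.17 to 1.78 (adjusted p = 0.054 to 0.23). The call in DKO cells at 2 h was lost without the second or the third or the fourth DKO library at 2 h or any WT library at 2 h, at log2 differences of 1.19 to 1.74 (adjusted p = 0.053 to 0.2). The call in KO cells at 2 h was lost without the first or the second or the third KO library at 2 h or any WT library at 2 h, at log2 differences of 1.58 to 1.79 (adjusted p = 0.06 to 0.12). KO cells at 4 h, with a log2 difference of 1.27 from WT (limma, adjusted p = 0.059), became a call without the first or the third KO library at 4 h, at log2 differences of 1.46 to 1.55 (adjusted p = 0.044 to 0.049). The authors' deposited table, from the same libraries and again without a share of all genes, lists 5 of the 12 Batf3 comparisons with WT under a false discovery rate of 0.05.

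Markers of dendritic cells, in which Batf3 and Irf8 are best known, were summed over the 7 of 9 listed genes that were measured. At 0 h that sum was 18.9 to 66.1 normalized counts in TKO libraries, 39.3 to 74.5 in DKO libraries, 39.4 to 62.99 in KO libraries and 66.9 to 106 in WT libraries, so it was not higher in the knockouts. At 2 h, when the Batf3 means were highest, it was 87.4 to 192 in TKO, 79.1 to 166 in DKO, 70.8 to 108 in KO and 111 to 212 in WT libraries. Of the listed genes, Xcr1, Clec9a and Itgax were at 0 in 16, 16 and 25 of the 64 libraries. They reached at most 0.918, 1.25 and 0.887 CPM, a count scaled to a fixed library depth. Clec10a was at 0 in 16 libraries and reached at most 0.717 CPM. Zbtb46, Flt3 and Ccr9, also on the list, were at 0 in 0 libraries and reached 13, 4.78 and 9.84 CPM. The 9 B cell markers summed to 85.7 to 334.5 normalized counts over all libraries. The other sums over all libraries were 31.5 to 473 for 2 CD8 T cell markers, 19.9 to 589.5 for 4 NK cell markers, 197 to 738 for 5 of 8 myeloid markers and 279 to 662 for 3 of 5 plasma cell markers, of which Mzb1 was at 0 in 37 libraries. Most of the plasma cell sum was Xbp1, at 33.6 to 79.4 CPM, and Sdc1 reached at most 6.66 CPM. Some of these sums moved with genotype. At 0 h the myeloid sum was 545 to 613 in TKO, 399 to 483 in DKO, 417 to 582 in KO and 314 to 476 in WT libraries, with TKO alone fully above WT. At 4 h it was 509 to 619 in TKO, 298 to 338 in DKO, 405 to 582 in KO and 197 to 259 in WT libraries, all knockouts lying above WT as for Batf, and KO overlapping TKO. Most of that sum was Ctss, which encodes the protease cathepsin S and averaged 554 ± 59.0 in TKO, 291 ± 19.2 in DKO, 450.1 ± 81.5 in KO and 183 ± 29.5 in WT cells at 4 h. Of the other myeloid markers, Lyz2 was at 0 in 53 libraries and reached at most 0.654 CPM. Csf1r was at 0 in 16 libraries and reached at most 0.797 CPM. Fcer1g was at 0 in 3 libraries and reached 1.19 CPM, and Itgam was at 0 in 0 libraries and reached 6.9 CPM. The NK cell sum at 4 h was 91.2 to 185 in TKO and 313 to 589.5 in WT libraries. In DKO and KO libraries it was 217 to 408 and 86.2 to 306, and TKO and KO lay below WT without overlap. It was mostly Eomes, with a median of 14.2 and at most 74.3 CPM. Ncr1, Klrb1c and Klra8 were at 0 in 41, 18 and 41 libraries and reached at most 0.531, 0.803 and 0.412 CPM. The CD8 T cell sum at 4 h was 195 to 277 in TKO and 45.2 to 161 in WT libraries, without overlap. In DKO and KO libraries it was 94.2 to 172 and 128 to 473, each overlapping WT. KO libraries at 0 h had a CD8 T cell sum of 47.3 to 327 (median 69.4). How far other cells add to the differences between groups was not tested.

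Irf4, the factor that scales with T cell receptor signal, differed between genotypes before restimulation. At 0 h Irf4 was 1978, 2233, 2011 and 1083 in TKO, 1256, 1409, 2252 and 1542 in DKO, 1469, 1301, 850.4 and 802 in KO and 675, 662, 631 and 922 in WT libraries. All TKO and DKO libraries lay above all WT libraries, and KO libraries overlapped WT. At 1 h it was 9007, 9626, 12975 and 8239 in TKO, 18352, 17089, 12635 and 12525 in DKO, 16081, 15579, 10493 and 11421 in KO and 13616, 15588, 10377 and 10739 in WT libraries. All genotypes overlapped, with 3 of the 4 TKO libraries below every WT library. At 2 h it was 11489, 7764, 12173 and 16234 in TKO, 12050.3, 17572, 11404 and 12971 in DKO, 13953, 12245, 17181 and 12615 in KO and 9136, 9892, 9678 and 12612 in WT libraries. The TKO libraries ranged most widely, and each knockout overlapped WT. At 4 h it was 3900.0, 4407, 5135 and 4317 in TKO, 5226, 4814, 3630.3 and 3294 in DKO, 6429, 5666, 4692 and 4782 in KO and 4608, 3991, 3793 and 4377 in WT libraries. KO libraries lay just above the WT libraries, and the other knockouts overlapped WT.

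At 0 h Irf4 was 2.46-fold higher in TKO cells than in WT cells, a log2 difference of 1.30 (limma, adjusted p = 2.6e-06), and 2.20-fold higher in DKO cells, a log2 difference of 1.14 (limma, adjusted p = 0.00014), each ± 0.21 SE. In KO cells the log2 difference from WT at 0 h was 0.58 (95% interval 0.16 to 1.00; limma, adjusted p = 0.21), and it passed the test with the libraries scaled as deposited (0.84, adjusted p = 0.0036). After restimulation the 9 differences from WT ran from -0.34 in TKO cells at 1 h to 0.44 in KO cells at 2 h, and none was called. KO cells at 4 h differed by 0.36 and passed the test in a fit of only the groups compared (adjusted p = 0.03). TKO cells at 1 h passed the test, as lower than WT, with the deposited scaling and no other alternative (-0.58, adjusted p = 0.024).

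Irf8, the second interferon regulatory factor of the set, showed no called difference between a knockout and WT. At 0 h Irf8 was 952, 636, 919 and 272 in TKO, 496, 997, 578 and 1048 in DKO, 874, 451, 950.3 and 489 in KO and 682, 555, 304 and 228 in WT libraries. Libraries of each genotype spread widely at that time and all genotypes overlapped. At 1 h it was 3385, 3949, 4197 and 1511 in TKO, 3355, 3722, 4659.7 and 3724 in DKO, 4157, 5190.5, 5085 and 5256 in KO and 3585, 4519.6, 4151 and 3596 in WT libraries. The fourth TKO library was far below the rest, and each knockout overlapped WT. At 2 h it was 7433, 3889, 7441 and 8366 in TKO, 7427, 7864, 7899 and 6846 in DKO, 9702, 8282, 9952 and 7513 in KO and 6151, 5661, 7019.6 and 5314 in WT libraries. KO libraries all lay above the WT libraries, and the second TKO library was the lowest of the 16. At 4 h it was 823, 1164, 914 and 1019 in TKO, 1167, 1156, 1043 and 823 in DKO, 948, 1116, 1174 and 1206 in KO and 1009.9, 1073, 943 and 895 in WT libraries. Genotypes overlapped fully at 4 h.

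Of the 12 comparisons of Irf8 with WT, limma called 0, limma voom called 0, and 3 had an unadjusted p under 0.05. These 3 were at 0 h, with log2 differences of 0.63 in TKO cells (limma, adjusted p = 0.084), 0.88 in DKO cells (limma, adjusted p = 0.053) and 0.70 in KO cells (limma, adjusted p = 0.34), each ± 0.29 SE. The TKO difference became a call without the fourth TKO library at 0 h or the first WT library at 0 h, at log2 differences of 0.88 to 1.03 (adjusted p = 0.0039 to 0.021), and it was 0.89 with adjusted p = 0.0034 when the highest-scoring library of every group was left out. The DKO difference became a call without the first DKO library at 0 h or the first or the second WT library at 0 h, at log2 differences of 1.03 to 1.13 (adjusted p = 0.017 to 0.041). With the deposited scaling, DKO and KO cells at 0 h were called at 1.15 and 0.96 (limma, adjusted p = 0.0027 and 0.021). Irf8 is overlapped on the same strand by the protein-coding gene Gm20388, which had 285% as many reads over all libraries. Group means of Gm20388 ran from 5582 to 12966, and how the authors' counting split reads between the 2 genes is not given in the sources used here.

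**Figure D2:**
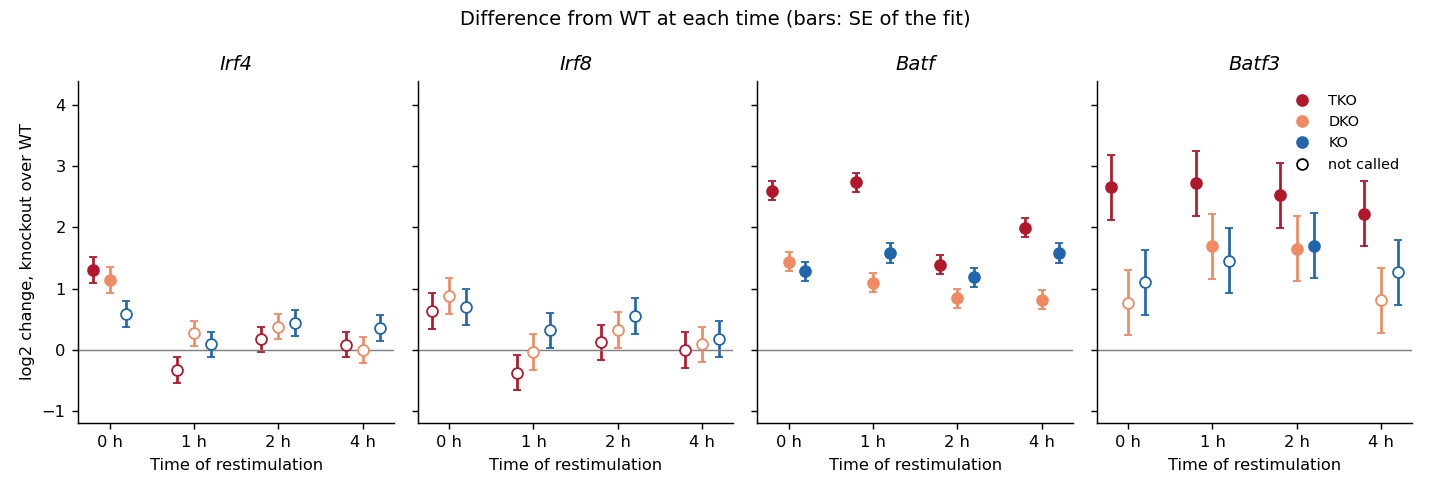
Log2 difference of each gene from WT at the same time (vertical axis) in TKO, DKO and KO cells from left to right, by time of restimulation; points are fitted values of 4 against 4 libraries, bars the SE, and filled points were called. All 12 Batf points lie above 0 and are filled, from 0.82 to 2.74, while Irf4 is filled only at 0 h in TKO and DKO cells and Irf8 nowhere.

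TKO cells had more Batf than DKO cells at all 4 times, and more than KO cells at 0 and 1 h. Against DKO cells Batf in TKO cells was higher by 1.17, 1.64, 0.55 and 1.18 on the log2 scale at 0, 1, 2 and 4 h (limma, adjusted p = 5.4e-07, 3.2e-11, 0.023 and 2.9e-07). The 2 h call was lost without the first or the third or the fourth TKO library at 2 h or the fourth DKO library at 2 h, at log2 differences of 0.38 to 0.53 (adjusted p = 0.05 to 0.18), and in a fit of only the groups compared (adjusted p = 0.086). Against KO cells the difference was 1.32 at 0 h and 1.16 at 1 h (limma, adjusted p = 1.5e-08 and 4.6e-07), and 0.21 at 2 h and 0.41 at 4 h, which were not called (limma, adjusted p = 0.43 and 0.19). The 4 h difference became a call in a fit of only the groups compared (adjusted p = 0.039) and without the highest-scoring libraries (adjusted p = 0.036). Batf3 in TKO cells at 0 h exceeded DKO cells by 1.89 and KO cells by 1.56 (limma, adjusted p = 0.013 and 0.031), and limma voom called the difference from DKO cells alone. The first of these calls was lost without the second DKO library at 0 h, at a log2 difference of 1.56 (adjusted p = 0.067), and the second without the first or the second or the third TKO library at 0 h or the first or the second KO library at 0 h, at log2 differences of 1.40 to 1.59 (adjusted p = 0.058 to 0.086). Irf4 in TKO cells at 0 h exceeded KO cells by 0.72 (limma, adjusted p = 0.011), a call lost without the third or the fourth KO library at 0 h, at log2 differences of 0.58 to 0.61 (adjusted p = 0.054 to 0.056).

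In all, 9 of the 32 comparisons of a member between TKO cells and DKO or KO cells were called, 8 by limma voom. Against DKO cells 2, 1, 1 and 1 of 4 members were called at 0, 1, 2 and 4 h, where 14.8%, 4.16%, 6.8% and 12.4% of all genes were. Against KO cells 3, 1, 0 and 0 members were called, where 20.2%, 9.67%, 11.6% and 2.59% of all genes were. Irf8 had 0 calls among its 8 comparisons, by limma and by limma voom, and 1 unadjusted p under 0.05, and its intervals reached from -1.28 to 0.52.

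Between the Roquin and the Regnase-1 knockout, Batf at 4 h was the 1 called difference of 16, with DKO cells lower than KO cells by a log2 difference of -0.77 (limma, adjusted p = 0.002). Total-count scaling moved it to -0.63 (adjusted p = 0.054). Of all genes 1.18%, 1.32%, 2.78% and 3.05% were called between these genotypes at 0, 1, 2 and 4 h. Batf at 1 h differed by -0.49 with separate libraries and was not called (limma, adjusted p = 0.12), except when the highest-scoring library of each group was left out (-0.52, adjusted p = 0.017). For Irf4 the 4 intervals of the difference between DKO and KO cells reached from -0.78 to 0.98, for Irf8 from -0.94 to 0.76, and for Batf3 from -1.53 to 1.31.

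Whether the loss of all 3 genes changed a member by other than the sum of the DKO and KO differences from WT on the log2 scale was asked at each time. None of the 16 tests was called by limma, limma voom called 0, and 4 had an unadjusted p under 0.05. Of all genes 0.83%, 0.254%, 0.155% and 0.167% were called at 0, 1, 2 and 4 h. For Batf the departure from the sum was -0.11 (95% interval -0.56 to 0.34) at 0 h and -0.63 (-1.08 to -0.18) at 2 h. Irf4 at 0 h departed by -0.42 (-1.01 to 0.17) and Irf8 by -0.94 (-1.77 to -0.12). With the deposited scaling, which moved the median of all genes by -0.46 to 0.14 over the 4 tests, these 2 values became -0.89 and -1.42 and were called (limma, adjusted p = 0.04 and 0.024). Batf at 2 h was called when the highest-scoring library of each group was left out (-0.87, adjusted p = 0.0067).

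Restimulation through CD3 and CD28 raised Irf4 at 1, 2 and 4 h in all genotypes. In WT cells Irf4 at 1 h was 17.3-fold its 0 h level, a log2 change of 4.12, and the changes at 2 and 4 h were 3.84 and 2.55 (limma, largest adjusted p = 9e-16). In TKO cells the changes at 1, 2 and 4 h were 2.48, 2.71 and 1.33, in DKO cells 3.24, 3.08 and 1.40, and in KO cells 3.62, 3.70 and 2.32. All 12 were called, and libraries at every restimulated time lay above all 0 h libraries of their genotype. The share of all genes whose libraries separate in this way was not counted. Between 1 and 2 h Irf4 changed by no called amount in any genotype, and from 2 to 4 h it fell in all 4, by 1.29 in WT to 1.68 in DKO cells. Over the 16 groups Irf4 ranked highest in DKO cells at 1 h (15150.1 ± 3013, SD, n = 4) and lowest in WT cells at 0 h (723 ± 134). Neighbours in that order overlapped except between the 8 groups at 1 and 2 h and the 4 groups at 4 h, and between these and the 4 groups at 0 h.

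Irf8 also rose by 1 h, and its means were highest at 2 h. In WT cells its log2 change from 0 h was 3.29 at 1 h, 3.90 at 2 h and 1.28 at 4 h (limma, largest adjusted p = 0.00019). At 2 h the change was 3.38 in TKO, 3.34 in DKO and 3.75 in KO cells. By 4 h Irf8 had fallen below its 2 h level in all 4 genotypes, by 2.62 in WT to 2.99 in KO cells (limma, largest adjusted p = 2.8e-10). At 4 h it was still called above 0 h in KO cells (0.76, limma, adjusted p = 0.023) and in WT cells, and not in TKO cells (0.64, adjusted p = 0.064) or DKO cells (0.49, adjusted p = 0.16). The KO call was lost without the second or the fourth KO library at 0 h or the fourth KO library at 4 h, at log2 differences of 0.58 to 0.72 (adjusted p = 0.05 to 0.11), and under 5 alternatives of scaling or filter, deposited scaling lowering the change to 0.32. The TKO change became a call without the first or the third TKO library at 0 h, at log2 differences of 0.82 to 0.84 (adjusted p = 0.021 to 0.024). Irf8 was highest in KO cells at 2 h (8862 ± 1162, SD, n = 4) and lowest in WT cells at 0 h (442 ± 212). Neighbours in that order overlapped except WT cells at 2 h and KO cells at 1 h, and TKO cells at 1 h and KO cells at 4 h. The lowest TKO library at 2 h (3889) lay within the range of the 1 h libraries.

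The fitted change of Batf from 0 h was largest at 2 h in each genotype. Its log2 change from 0 h in WT cells was 0.57 at 1 h, 2.69 at 2 h and 1.83 at 4 h (limma, largest adjusted p = 0.0036). The 1 h call in WT cells was lost with upper-quartile scaling (0.38, adjusted p = 0.064) and total-count scaling (0.33, adjusted p = 0.13). In TKO cells, which began higher, the changes at 1, 2 and 4 h were 0.70, 1.48 and 1.22. DKO cells changed by 0.23 at 1 h, which was not called (limma, adjusted p = 0.28; 0.046 without the highest-scoring libraries), and by 2.10 and 1.21 at 2 and 4 h. KO cells changed by 0.87, 2.60 and 2.13. From 2 to 4 h Batf fell in DKO, KO and WT cells by 0.89, 0.46 and 0.86, and in TKO cells the change was -0.26 (95% interval -0.57 to 0.06), which was not called. The KO fall was lost with total-count scaling (-0.19, adjusted p = 0.42) and without the first or the third KO library at 2 h or the third KO library at 4 h, at log2 differences of -0.42 to -0.35 (adjusted p = 0.063 to 0.12). TKO cells at 0 h (1135 ± 278) and WT cells at their 2 h peak (1198 ± 217, SD, n = 4 each) overlapped in Batf level.

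The means of Batf3 were highest at 2 h in all genotypes, with log2 changes from 0 h of 1.22 in TKO, 2.23 in DKO, 1.94 in KO and 1.34 in WT cells (limma, adjusted p = 0.055, 0.00032, 0.0016 and 0.03). The TKO change became a call without the second TKO library at 2 h, at a log2 difference of 1.70 (adjusted p = 0.0095). The WT call was lost without the second WT library at 0 h or the second or the fourth WT library at 2 h, at log2 differences of 1.18 to 1.27 (adjusted p = 0.065 to 0.086), and with limma voom (adjusted p = 0.19). None of the 8 changes at 1 and 4 h from 0 h was called. From 2 to 4 h Batf3 changed by -0.86 in TKO, -1.40 in DKO, -0.99 in KO and -0.56 in WT cells (limma, adjusted p = 0.25, 0.042, 0.16 and 0.46). The fall was thus called in DKO cells alone, and there it was lost under 12 of 20 alternatives, among them all 4 other scalings. It was lost without the second or the third or the fourth DKO library at 2 h or the first or the second or the fourth DKO library at 4 h, at log2 differences of -1.46 to -0.94 (adjusted p = 0.056 to 0.23). Over the 16 groups its mean ran from 109 ± 66.4 in TKO cells at 2 h to 5.35 ± 3.29 in WT cells at 1 h (SD, n = 4 each), and every group overlapped its neighbour in that order.

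As a background for these counts, 3, 3 and 2 of 4 members were called at 1, 2 and 4 h against 0 h in TKO cells, where 22.3%, 47.3% and 50.4% of all genes were. In DKO cells 2, 4 and 2 members were called, with 31.9%, 55.1% and 55.1% of all genes, and in KO cells 3, 4 and 3, with 29.2%, 57.9% and 60.5%. In WT cells they were 3, 4 and 3, with 31.1%, 52% and 51.7% of all genes. All 36 calls of 48 were rises, whereas the shares of all genes count rises and falls together. The direction of the members' calls therefore has no background here. At 2 and 4 h a call was about as common among all genes as not. Between 1 and 2 h, 3, 3, 3 and 2 members were called in TKO, DKO, KO and WT cells, against 32.1%, 37.9%, 37.3% and 35.5% of all genes. Between 2 and 4 h, 2, 4, 3 and 3 members were called, against 24.6%, 27%, 31.2% and 28.4%. These steps were added after the data had been seen.

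**Figure D3:**
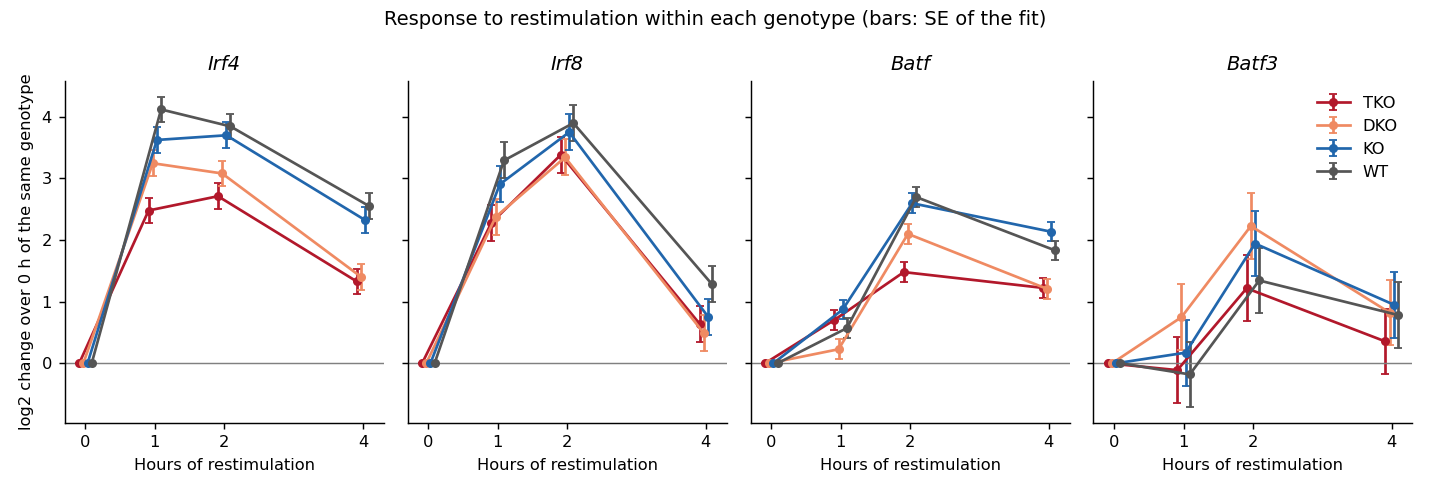
Log2 change of each gene over 0 h of the same genotype (vertical axis) against hours of restimulation in TKO, DKO, KO and WT cells; points are fitted values from 4 libraries per group and bars the SE. For Irf4 the TKO line runs lowest at 1, 2 and 4 h, from 1.33 to 2.71, and the WT line highest, from 2.55 to 4.12.

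The response of Irf4 differed between TKO and WT cells. Its rise over 0 h in TKO cells minus that in WT cells was -1.64 at 1 h, -1.13 at 2 h and -1.22 at 4 h on the log2 scale, each ± 0.30 SE (limma, adjusted p = 0.00055, 0.014 and 0.0052). The 2 h call was lost without the second TKO library at 2 h, at a log2 difference of -0.94 (adjusted p = 0.055), and in a fit of only the groups compared (adjusted p = 0.089). Irf4 was higher in TKO than in WT cells at 0 h and was called at no later time, so these differences include the difference at 0 h. In DKO cells the difference from WT was -0.87 at 1 h, -0.76 at 2 h and -1.15 at 4 h, of which the last was called (limma, adjusted p = 0.041). That call was lost without the third or the fourth DKO library at 0 h, the third or the fourth DKO library at 4 h, the first or the second or the third WT library at 0 h or the first or the second or the fourth WT library at 4 h, at log2 differences of -1.17 to -0.97 (adjusted p = 0.058 to 0.16). In KO cells the differences were -0.49, -0.14 and -0.23, and none was called.

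For Batf at 2 h the rise in TKO cells minus that in WT cells was -1.22 ± 0.22 (SE; limma, adjusted p = 0.00025). At 1 and 4 h the differences were 0.13 and -0.61 (adjusted p = 0.98 and 0.096), and the 4 h difference became a call with the deposited scaling (-0.92, adjusted p = 0.004), with upper-quartile scaling and with the stricter filter. Irf8 had 0 calls among its 9 response differences by limma and by limma voom, with 2 unadjusted p-values under 0.05, and Batf3 had 0 by both, with 0 unadjusted. All 9 Irf8 values were below 0, from -1.01 in TKO cells at 1 h to -0.15 in KO cells at 2 h, and they share the WT libraries. In all 5 of the 36 tests were called. Of all genes 0.781%, 4.54% and 6.61% were called at 1, 2 and 4 h in TKO cells, where 1, 2 and 1 members were. In DKO cells the background was 0.105%, 0.347% and 0.818%, with 0, 0 and 1 members, and in KO cells 0.0248%, 0.204% and 2.19%, with 0 members. With the deposited scaling the median of all genes shifted by -0.53 to -0.15 over the 9 tests, and 11 of the 36 were called.

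To set the levels of the 2 partner genes side by side, counts were divided by exon length (4903 bases for Irf4 and 1406 for Batf) and their ratio was taken in each library, as a description with no test. At 1 h the ratio of Irf4 to Batf was 1.01 to 2.30 in TKO libraries, 6.11 to 9.18 in DKO libraries, 3.35 to 6.07 in KO libraries and 10.9 to 14.5 in WT libraries. The genotypes were fully separate at that time, in the order WT, DKO, KO and TKO. At 4 h the ratio was 0.438 to 0.585 in TKO, 0.771 to 1.19 in DKO, 0.697 to 0.966 in KO and 1.48 to 2.17 in WT libraries, again with all WT libraries highest and all TKO libraries lowest. At 0 h it was 0.202 to 0.693 in TKO, 0.619 to 1.29 in DKO, 0.449 to 0.901 in KO and 0.860 to 1.45 in WT libraries, and at 2 h 0.806 to 1.45 in TKO, 1.39 to 2.51 in DKO, 1.19 to 2.00 in KO and 1.96 to 2.82 in WT libraries. At both times TKO lay below WT without overlap, and DKO and KO overlapped WT. Per kilobase in WT cells at 0 h, mean levels were 147 for Irf4, 62.7 for Irf8, 130.2 for Batf and 3.37 for Batf3, and in TKO cells they were 372, 98.5, 807 and 24.7 for the same genes.

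**Figure D4:**
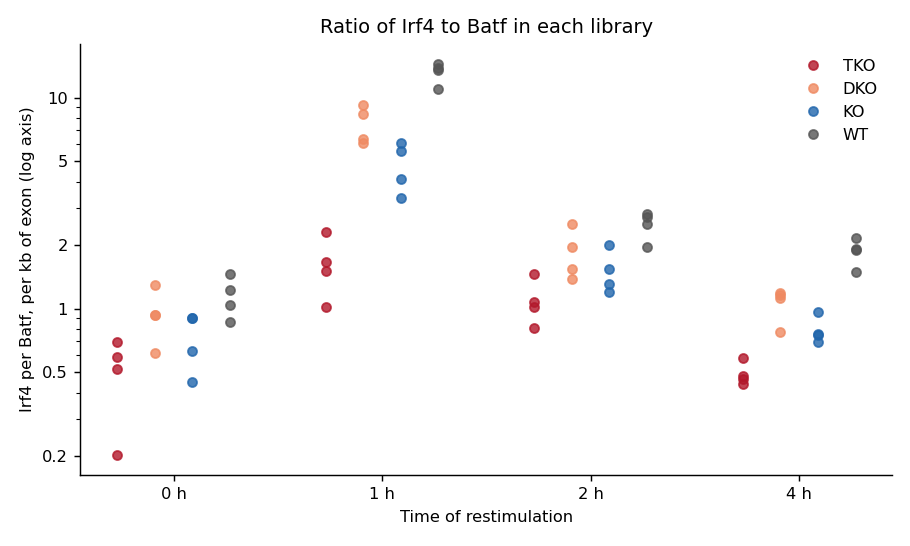
Ratio of Irf4 to Batf per kilobase of exon (log axis) in each library, by time of restimulation, with TKO, DKO, KO and WT from left to right at each time; each point is 1 library. At 1 h the WT libraries lie between 10.9 and 14.5 and the TKO libraries between 1.01 and 2.30.

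Over the 16 group means, which share libraries with all results above, the levels of Irf4 and Irf8 correlated at Pearson r = 0.92 and those of Batf and Batf3 at 0.93, and the other 4 pairs at 0.38 to 0.50. The genes most like Irf4 over the 16 means were Slamf1 (0.99), Rnf19a (0.99), Srp54c (0.98), Adss (0.98) and Smim3 (0.98). For Irf8 they were Rrad (0.98), Tle3 (0.98), Map3k11 (0.98), Mlxip (0.98) and Bcor (0.98). Batf was most like Cox17 (0.97), Pla2g12a (0.96), Thoc7 (0.96), Srp14 (0.96) and Hk2 (0.96), and Batf3 most like Hk2 (0.94), Mt2 (0.94), Thoc7 (0.93), Tmem131 (0.93) and Batf itself (0.93). Hk2 and Thoc7, which encode hexokinase 2 and a subunit of an mRNA export complex, stood in both lists.

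Of 7 other interferon regulatory factor genes, among them Irf1, Irf5 and Irf7, 1 was called at 0 h in TKO cells, 1 in DKO cells and 0 in KO cells, where 37.2%, 7.61% and 1.34% of all genes were. The list had median log2 differences from WT of 0.17, 0.13 and 0.12 beside 0.07, -0.04 and -0.03 for all genes. The 1 called gene was Irf5, an activator of inflammatory genes in myeloid cells, at 90.5 ± 24.2 in TKO, 84.7 ± 22.2 in DKO and 33.5 ± 6.93 in WT cells. It shares its locus with Tnpo3 on the other strand, which had 2080% as many reads, and with no strand setting stated the reads of such pairs cannot be told apart. Irf1 and Irf7, genes of the interferon response, fell in restimulated WT cells. Irf1 averaged 158 ± 40.3 at 4 h, against 1123 ± 294 at 0 h, and Irf7 averaged 3.19 ± 1.20 at 4 h, against 47.2 ± 13.4 at 0 h (limma, adjusted p = 4.2e-14 and 7.5e-11). Irf7 is overlapped by Phrf1 on the opposite strand, with 3230% as many reads. In all 4 of the 7 fell and 0 rose at 4 h in WT cells, where 51.7% of all genes were called.

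Among 8 AP-1 genes (Batf2, Jun, Junb, Jund, Fos, Fosb, Fosl1 and Fosl2), the JUN partner gene Junb alone was called at 0 h, at 637 ± 287 in TKO and 557 ± 277 in DKO cells, against 274 ± 64.9 in WT cells (limma, adjusted p = 0.00014 and 0.0063). KO cells had 0 calls in this list at 0 h. That is 1, 1 and 0 of 8 genes in TKO, DKO and KO cells, where 37.2%, 7.61% and 1.34% of all genes were called. The list's median log2 difference from WT at 0 h was 0.31 in TKO, 0.05 in DKO and 0.17 in KO cells, beside 0.07, -0.04 and -0.03 for all genes. At 4 h Jun alone of the 8 was called in TKO cells (288 ± 64.03, against 145 ± 16.5 in WT cells, limma, adjusted p = 0.011). Restimulation of WT cells raised 7 of the 8 at 1 h (median log2 change 3.56, all genes -0.10) and 2 at 4 h, where 31.1% and 51.7% of all genes were called. The Fos-like gene Fosl1 averaged 193 ± 3.73 at 4 h, against 2.56 ± 1.43 at 0 h. Junb overlaps Prdx2 on the other strand, which had 20.2% as many reads, and Jun overlaps Junos, with 11.4%.

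ETS and Ikaros factors, which bind composite elements with IRF4 or IRF8, showed 0 calls of 6 tested at 0 h in any knockout against WT, although 37.2% of all genes were called in TKO cells. At 4 h 3 were higher and 1 lower in TKO cells, 2 higher in DKO cells, and 4 higher and 1 lower in KO cells, where 43.7%, 5.37% and 33.1% of all genes were called. Ets1 averaged 3066 ± 491 in TKO, 2246 ± 436 in DKO and 2923 ± 823 in KO cells, against 1559.7 ± 282 in WT cells, and Elf1 averaged 1321 ± 163 in TKO and 1243 ± 57.5 in DKO cells, against 853 ± 89.6 in WT cells. Elf1 overlaps Wbp4, which had 15.9% as many reads. Spi1, the gene of PU.1, a partner of IRF4 and IRF8 in myeloid and B cells, was low throughout, at 5.07 ± 4.49 in TKO and 2.86 ± 0.977 in KO cells at 4 h, against 11.7 ± 2.04 in WT cells. In WT cells 3 of the 6 fell and 0 rose at 4 h of restimulation, near the 51.7% of all genes called. Among them was Fli1, at 692 ± 147 at 4 h, against 2949.9 ± 495 at 0 h.

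Signals known to feed Irf4 transcription run from the T cell receptor to NF-kB, by way of BCL10 and MALT1, and to NFAT. Of 9 such genes, 3 were higher and 1 lower in TKO cells at 0 h, 2 higher in DKO cells and 0 called in KO cells, where 37.2%, 7.61% and 1.34% of all genes were called. The TKO count was thus near the share of all genes. Rel, which encodes the NF-kB subunit c-Rel, averaged 598 ± 62.3 in TKO and 329.7 ± 61.4 in DKO cells at 0 h, against 236 ± 92.0 in WT cells (limma, adjusted p = 7.5e-09 and 0.046). Malt1 averaged 1843 ± 295 in TKO and 1319.5 ± 239.9 in DKO cells, against 814 ± 276 in WT cells (limma, adjusted p = 1.7e-05 and 0.025). Nfkb1 was called in TKO cells only (4159 ± 909.6, against 2579 ± 321 in WT cells). The list's median difference at 0 h was 0.07 in TKO, 0.15 in DKO and 0.05 in KO cells. In WT cells 5 of the 9 rose and 2 fell at 4 h of restimulation, where 51.7% of all genes were called, with Rel at 1921 ± 275 at 4 h, against 236 ± 92.0 at 0 h.

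Of 20 genes known as targets of IRF4 and BATF in T cells, 7 were higher and 1 lower in TKO cells at 0 h, 6 higher and 0 lower in DKO cells, and 4 higher and 0 lower in KO cells. Of all genes, 37.2%, 7.61% and 1.34% were called in those comparisons, so the TKO count was near the share of all genes. The list had medians of 0.66, 0.66 and 0.39 beside 0.07, -0.04 and -0.03 for all genes. It was chosen with earlier results of these data known, so its counts and medians are a description and no test of the targets as a set. Icos, a costimulatory receptor gene and a known Roquin target, averaged 11825 ± 2819.5 in TKO, 5562 ± 1355 in DKO and 4003 ± 795 in KO cells, against 836 ± 289 in WT cells. Ctla4, which encodes an inhibitory receptor, averaged 3477 ± 951 in TKO and 3479 ± 1884 in DKO cells, against 484 ± 269.7 in WT cells. The cytokine gene Il10 was called in TKO cells alone, at 91.9 ± 47.3, against 4.55 ± 2.29 in WT cells, and the transcription factor gene Maf, called in all 3 knockouts, was at 685 ± 397 in TKO, 461 ± 173 in DKO and 557 ± 228 in KO cells, against 102 ± 39.7 in WT cells. At 4 h 7 were higher and 1 lower in TKO cells, 4 higher in DKO cells and 6 higher in KO cells, where 43.7%, 5.37% and 33.1% of all genes were called. Il21, the cytokine gene of follicular helper cells, averaged 221 ± 123 in TKO, 115 ± 81.7 in DKO and 153 ± 98.9 in KO cells at 4 h, against 23.0 ± 17.8 in WT cells (limma, adjusted p = 2.9e-05, 0.014 and 0.00088).

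**Figure D5:**
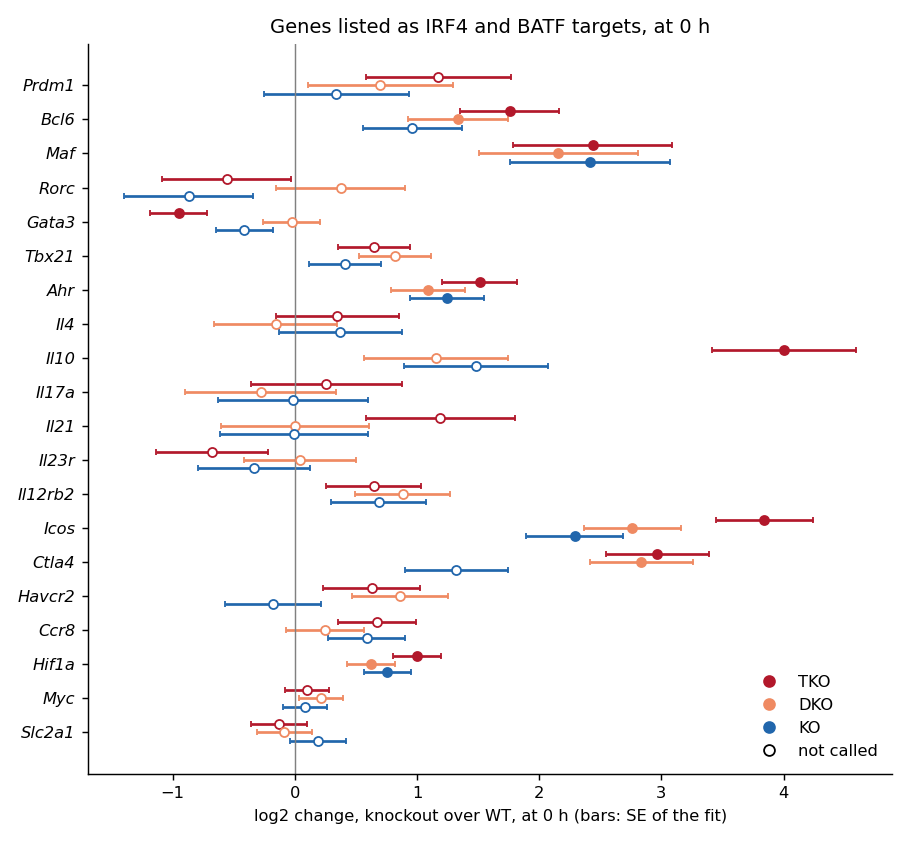
Log2 difference from WT at 0 h (horizontal axis) of 20 genes listed as IRF4 and BATF targets, with TKO, DKO and KO from top to bottom in each row; bars are the SE of the fit and filled points were called. Il10 in TKO cells reaches 4.00 and Icos 3.84, and Gata3 in TKO cells is the called point below 0.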

How the data were processed

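RNA was sequenced from 64 libraries of cultured mouse CD4 T cells, 4 in each of 16 groups. Reads were mapped to GRCm38, per the submitters' processing notes. Which aligner, counter and strand setting were used is not given in the sources used here. The authors deposited 1 table of 23134 genes with, per the file headers, a list of 4 normalized counts per gene and group, and with their own log2 fold changes and adjusted p-values. Libraries are numbered by their place in a list, since the headers number none, and places were not taken to pair libraries across groups. Whole reads could be recovered from the steps between low values, 100% of which came out whole (tolerance 0.1 read).

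Values were rescaled by the trimmed mean of M values (trims of 30 and 5 percent). Genes were kept at 10 or more reads at the median depth (1.3 CPM) in at least 4 libraries and 15 reads in all. Limma 3.58.1 in R 4.3.3 was fitted to log2(value + 1) with 1 mean per group (48 residual degrees of freedom), trended and robust, with 2-sided p-values adjusted by the Benjamini-Hochberg method over 16140 genes in each of 49 comparisons and 8 added ones. The fit was tested on simulated counts for the 0 h groups only, with libraries drawn independently. Genes as low as Batf3 in WT cells were not among those changed, and the axis of spread within groups was not simulated. Genes named beside the members were the 5 with the highest Pearson r over the 16 group means for each member, and up to 3 called genes with the largest change per list in each knockout against WT at 0 and 4 h and in WT cells at 4 h. The members and lists were chosen with earlier results of these data known. Alternatives were 4 other scalings, pseudocounts of 0.25 and 4, no filter, a filter at 50 reads, a fit of only the groups compared, limma voom on the recovered reads, and leaving out each library. Added after the data were seen were a replicate block by place in the list and leaving out the highest-scoring library of each group. Some genes of the lists are not reported here by name.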

Additional observations from a re-analysis of the deposited data

Results flagged for a closer look

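In 6 of 64 sets of 4 libraries, 1 library lay apart from the other 3 by more than the 95% critical value of Dixon's gap test, which chance gives in about 1 of 20 sets. Batf in TKO cells at 2 h had a library at 2762, below the others. Batf3 had a high library in DKO cells at 1 h (52.1) and low ones in TKO cells at 4 h (15.2) and WT cells at 0 h (3.51). Irf4 had a high library in WT cells at 0 h (921.7), and Irf8 a low one in KO cells at 1 h (4157). The low TKO libraries of Batf at 2 h and Batf3 at 4 h were the highest-scoring ones of their groups.

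The response to restimulation differed from that of WT cells, by the test of the difference itself (limma, n = 4 libraries per group), in 5 cases. Irf4 differed by -1.64 at 1 h, -1.13 at 2 h and -1.22 at 4 h in TKO cells and by -1.15 at 4 h in DKO cells. Batf differed by -1.22 at 2 h in TKO cells. Each value is the difference from WT at that time minus the difference from WT at 0 h. For Irf4 in TKO cells the difference from WT was 1.30 at 0 h and -0.34, 0.17 and 0.08 at 1, 2 and 4 h. For Irf4 in DKO cells it was 1.14 at 0 h and -0.01 at 4 h. For Batf in TKO cells it was 2.61 at 0 h and 1.39 at 2 h.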

How the results depend on the processing

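Counts of called members kept within 1.5 times of 36 (restimulated against 0 h), 21 (knockout against WT), 9 (TKO against DKO or KO) and 23 (steps between times) under all alternatives run. The 1 call between DKO and KO cells became 0 with total-count scaling and 2 without the highest-scoring library of each group. The 5 differences in response became 11 with the deposited scaling, and the 0 calls of non-additivity became 2 with the deposited scaling and 1 without the highest-scoring libraries. The cause was not tested. Leaving out 1 library at a time gave 35 to 37, 19 to 23, 8 to 10, 1, 4 to 5, 0 and 21 to 23 calls for time, knockout against WT, TKO against other knockouts, DKO against KO, responses, non-additivity and steps. Over the lists of partners and targets, 224 calls became 212 to 228. Where that left 3 libraries, the spread was still pooled over all groups. Of 228 member results, 95 were called, 76 of them under every alternative, and of 133 not called, 105 stayed so under every alternative. No called result changed sign. Other scalings moved the median of all genes by -0.43 to 0.14 (restimulated against 0 h), -0.28 to 0.27 (knockout against WT) and -0.53 to 0.08 (responses).

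The lists give no replicate numbers, and libraries at the same place deviated together about as much as libraries at different places. The correlation of their deviations had a median of 0.00733 (-0.493 to 0.704), against -0.0142 (-0.629 to 0.754) for different places. That check covers pairing by place only. Pairing of libraries across groups in another order was not tested, and the fit takes them as unpaired. A replicate block by place gave 36, 22, 9, 1, 5, 0 and 23 calls for the same comparisons in that order, and it turned Irf8 in DKO cells at 0 h into a call (0.88, limma, adjusted p = 0.043). The planned count-model alternatives on recovered reads, by the quasi-likelihood and the Wald test, were not run. Depth limits Batf3 most, with 1 to 15 reads in WT libraries.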

Other observations

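Gm20388, the protein-coding gene that overlaps Irf8 on the same strand, averaged 6963 ± 759 in TKO, 6101 ± 1315 in DKO, 5582 ± 958 in KO and 6648 ± 1411 in WT cells at 0 h, and 12238 ± 1290 in TKO, 11781 ± 479 in DKO, 12966 ± 1285 in KO and 11831 ± 1547 in WT cells at 2 h (SD, n = 4 each).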
